A study of Mus musculus with 21 samples.

Results

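Lymphoid priming is the low expression of lymphoid genes in progenitors that are not yet committed to the lymphoid lineage. The data on 10 genes of this kind were taken from the 47643 rows of a count table of mouse bone marrow progenitors. The genes were listed by name: Il7r, Dntt, Rag1, Rag2, Notch1, Ccr9, Satb1, Cd27, Blnk and Tcf7. All 10 had a row, and 8 of the 10 were among the 14801 genes that passed the filter on low counts and could be tested, while Rag1 and Ccr9 did not pass it.

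RNA was sequenced from 7 populations of C57/B6 mouse bone marrow, with 3 libraries each and no genotype or treatment other than the sort. Granulocyte/monocyte progenitors (GMPs) were sorted as CD62L-neg, CD62L-int and CD62L-high GMPs and as bulk GMPs. Common myeloid progenitors (CMPs) were sorted as CD62L-high CMPs, CD62L-neg CMPs and bulk CMPs. The study asked whether the surface level of CD62L divides CMPs and GMPs by stage of differentiation. Per the study's methods, both kinds of progenitor were lineage-negative, Sca-1-, c-Kit+ and CD34+ cells, GMPs being CD16/32+ and CMPs CD16/32-. The lineage cocktail held an antibody to CD127, the protein of Il7r, together with antibodies to B and T cell antigens, so cells with surface IL-7 receptor were gated out of all 7 populations. CD62L-neg GMPs were only the small share of GMPs with the least CD62L. The populations called CD62L-neg CMPs and CD62L-int GMPs here, as in the study, carry the word low in the labels. Nothing in the labels says that replicates are different animals, and the p-values therefore reflect library-to-library spread that may be technical. In bulk RNA, fewer expressing cells and less RNA per cell cannot be told apart.

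The listed genes act at different steps of lymphoid development. Il7r encodes the alpha chain of the receptor for interleukin-7, the cytokine that early lymphocytes of the mouse need to survive and divide. Rag1 and Rag2 encode the recombinase that cuts antigen receptor genes, and Dntt encodes terminal deoxynucleotidyl transferase (TdT), which adds bases at the cut ends and is among the earliest lymphoid transcripts in multipotent progenitors. Notch1 encodes the receptor that commits progenitors to the T lineage, and Tcf7 encodes TCF-1, a transcription factor of early T cells and innate lymphoid cells. Satb1 encodes a chromatin organizer, Cd27 a TNF receptor family member, Ccr9 a chemokine receptor for homing to thymus and gut, and Blnk an adaptor of the pre-B cell receptor.

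The promoter windows of 3 members are shown, because their transcripts took different courses across the populations. Il7r was detected in CMPs and in no GMP library, Dntt had 2 to 2012 counts in the CMP libraries and at most 3 counts in any GMP library, and Cd27 was measured in all 21 libraries. Each window runs from 250 bases before to 50 bases after the annotated start, as given by RefSeq on GRCm38.p6, and capitals mark matches to 1 of 5 motifs.
Il7r, minus strand of chr15:9529827-9530126: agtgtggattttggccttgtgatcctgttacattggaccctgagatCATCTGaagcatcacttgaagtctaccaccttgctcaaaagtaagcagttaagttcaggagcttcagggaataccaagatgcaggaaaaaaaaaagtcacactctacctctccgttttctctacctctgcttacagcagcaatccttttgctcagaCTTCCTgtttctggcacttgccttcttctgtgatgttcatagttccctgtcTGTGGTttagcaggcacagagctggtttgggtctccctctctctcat
Dntt, plus strand of chr19:41029025-41029324: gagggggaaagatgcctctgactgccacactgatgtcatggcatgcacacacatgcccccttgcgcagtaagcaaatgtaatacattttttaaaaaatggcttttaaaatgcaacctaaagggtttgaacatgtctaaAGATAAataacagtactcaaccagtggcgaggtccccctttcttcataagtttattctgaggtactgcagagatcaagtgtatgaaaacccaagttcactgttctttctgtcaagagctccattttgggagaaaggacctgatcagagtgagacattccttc
Cd27, minus strand of chr6:125236978-125237277: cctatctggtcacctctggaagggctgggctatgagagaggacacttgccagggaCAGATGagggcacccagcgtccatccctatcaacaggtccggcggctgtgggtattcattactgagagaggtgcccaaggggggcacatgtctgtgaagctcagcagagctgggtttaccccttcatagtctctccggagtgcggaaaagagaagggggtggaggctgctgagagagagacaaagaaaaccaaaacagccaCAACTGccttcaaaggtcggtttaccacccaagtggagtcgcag
The motifs were searched on both strands. CAGNTG is the E-box of basic helix-loop-helix factors. TGTGGT stands for RUNX factors, and AGGAAG for the ETS family that includes PU.1. TGGGAA is the core that Ikaros binds, and AGATAA is the site of GATA factors. The Il7r window held 1 E-box, 1 ETS and 1 RUNX match, the Dntt window held 1 GATA match, and the Cd27 window held 2 E-boxes, with no overlap between matches. At least 1 window held an E-box in 8 of the 10 genes, an ETS match in 5, a RUNX match in 2, an Ikaros match in 2 and a GATA match in 1. The shares of all 32851 windows of the same length were 51.4% for the E-box, 35.4% for ETS, 16.8% for RUNX, 25.6% for Ikaros and 11.2% for GATA. Satb1 has 5 annotated starts and Tcf7 has more than 1, so these genes had more windows to hold a match than the other 8. A match is a description of letters and not of a bound site.

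In GENCODE annotation of GRCm38 (vM21), 4 members form 2 pairs of neighbours. Rag2 (chr2:101624718-101632529, plus strand) and Rag1 (chr2:101638282-101649501, minus strand) lie 5.75 kb apart, and Blnk (chr19:40928927-40994535, minus strand) and Dntt (chr19:41029275-41059525, plus strand) lie 34.7 kb apart with no annotated gene between them. The strand setting of the counting was not given in the sources used here, so reads of overlapping genes may not be told apart. Another gene's exons covered 21.5% of the exonic bases of Ccr9, 9.76% of those of Notch1, 6.07% of those of Rag2 and 5.54% of those of Cd27, and at most 1.49% of those of any other member.

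Library totals ran between 6145834 and 15263573 counts, and 3 libraries stood apart. The 3 gene models Gm42418, Gm26917 and Gm23935 made up 61% of bulk CMP replicate 2 and 41.1% of CD62L-high GMP replicate 1, against 22.4% to 31.7% in every other library. CD62L-neg CMP replicate 1 stood apart from its group in several lymphoid genes. Levels are given as CPM, the count scaled to library size. Flt3, the receptor tyrosine kinase of lymphoid-primed progenitors, stood at 57.5 CPM there, against 7.28 and 4.06 CPM in the other CD62L-neg CMP libraries. Of the transcripts that define mature T cells, Trac and Cd3g had no count in any library, and Cd3e reached at most 0.158 CPM.

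The 10 genes fell into an abundant and a scarce group. Notch1, Satb1, Cd27 and Dntt exceeded 35 CPM in some library, whereas Il7r, Rag1, Rag2, Ccr9, Blnk and Tcf7 stayed at or under 10.2 CPM in all 21. Per kilobase of annotated exon, the means in CD62L-high CMPs were 35 CPM for Dntt, 17.8 for Cd27, 17.6 for Notch1, 9.04 for Satb1 and 0.678 for Il7r. Il7r, Dntt, Notch1, Ccr9 and Satb1 had their highest mean in CD62L-high CMPs, and only Il7r and Satb1 did so without overlap with the next population, bulk CMPs. Rag1, Rag2, Cd27, Blnk and Tcf7 had their highest mean in bulk CMPs, where their libraries overlapped those of the next population. The highest bulk CMP values of Rag2, Blnk and Tcf7 (3.29, 2.69 and 10.2 CPM) came from replicate 2, a library that stood apart, so these ranks lean on it. The lowest mean lay in CD62L-neg CMPs for Notch1 and Satb1, which overlapped the population above it (CD62L-neg GMPs for Notch1, CD62L-high GMPs for Satb1), and in CD62L-high GMPs for Cd27, which overlapped none.

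**Figure D1:**
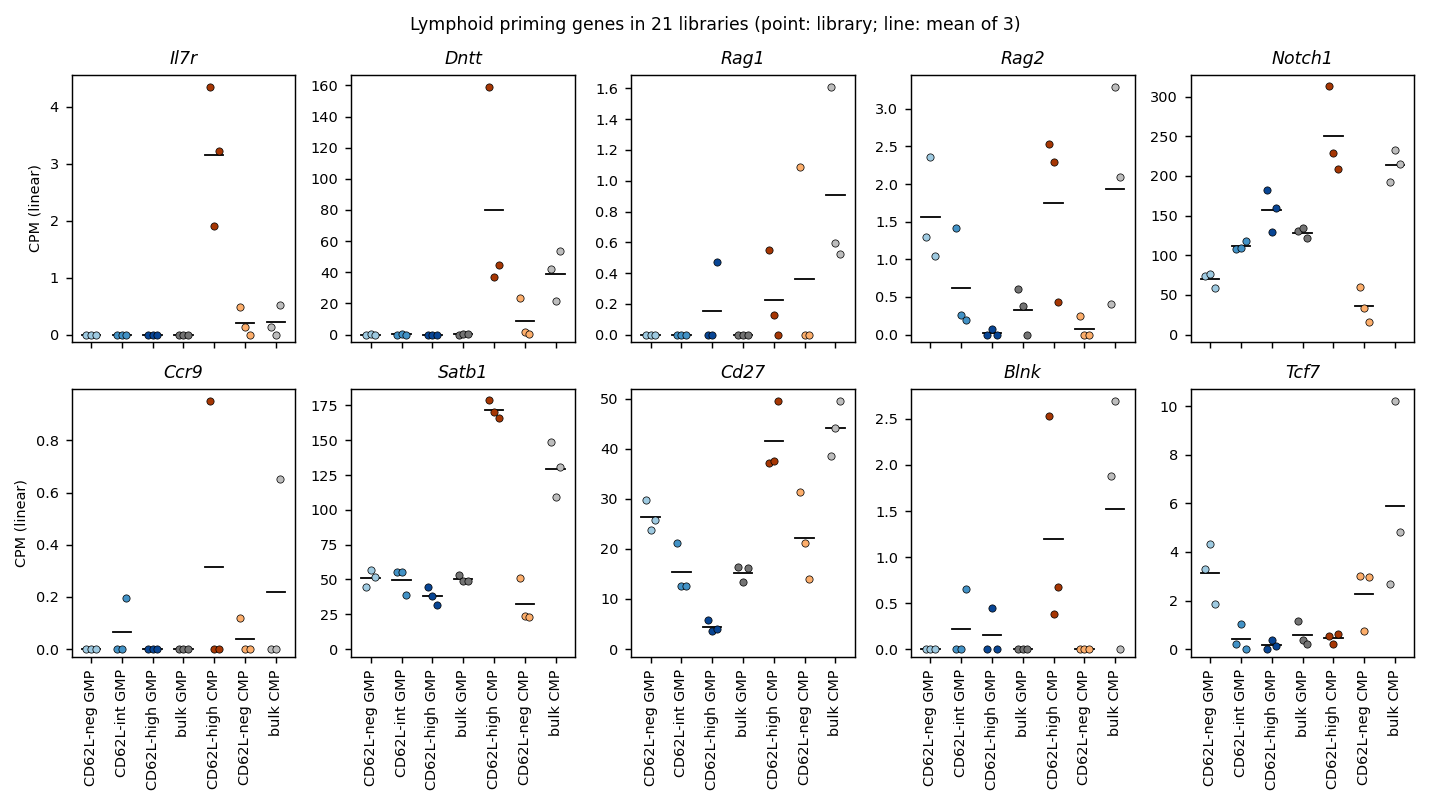
CPM of the 10 lymphoid priming genes (linear vertical axes, one panel a gene) in the 7 populations, with a point for each library and a line at the mean of 3. Il7r lies at 0 in all 12 GMP libraries and between 1.9 and 4.35 CPM in the CD62L-high CMP libraries, and Cd27 is lowest in CD62L-high GMPs at 3.63 to 5.8 CPM.

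CD62L-high CMPs held more Dntt, Rag2, Notch1 and Satb1 than CD62L-neg CMPs, and Il7r and Blnk, which did not pass the test, were also seen mainly in CD62L-high CMPs. Of the 8 members tested, 4 were called higher and none lower. A call required more than a 2-fold change together with an adjusted p below 0.05, which 10.5% of all genes met, 5.62% as higher and 4.84% as lower. Libraries of these CMPs did not overlap between groups for any of the 8 members, as for 39% of all genes. Without CD62L-high CMP replicate 1 the number called was 2, without CD62L-neg CMP replicate 1 it was 5, and without the 3 libraries that stood apart it was 6. Tcf7 ran the other way without passing the test.

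Dntt, Rag2 and Rag1 are the members that act in antigen receptor recombination. Dntt stood at 159, 37.1 and 44.6 CPM in CD62L-high CMPs, against 23.7, 1.53 and 0.27 CPM in CD62L-neg CMPs. The spread was wide on both sides, with replicate 1 the highest of its group in each. The log2 fold change was 3.22 ± 0.79 (SE, as for each fold change, edgeR's quasi-likelihood test with Benjamini-Hochberg adjustment, adjusted p = 0.00594). It was 6.44 (adjusted p = 5.18e-06) without CD62L-neg CMP replicate 1 and 2.24 (adjusted p = 0.0852) without CD62L-high CMP replicate 1. DESeq2 gave 3.19 with an adjusted p of 0.141.

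Rag2 was close to the limit of detection in CMPs sorted on CD62L. It had 2.53, 2.29 and 0.433 CPM in CD62L-high CMPs, against 0.242, 0 and 0 CPM in CD62L-neg CMPs. Only 2 counts lay behind all the CD62L-neg CMP values, so the ratio of pooled levels, CD62L-high over CD62L-neg, was 19.8 with a 95% counting interval of 5.28 to 166, which covers counting error only (edgeR adjusted p = 0.0384). The call was lost without any 1 of 5 libraries, with adjusted p-values up to 0.151. Rag1, the other subunit of the same enzyme, gave 7, 2 and 0 counts in CD62L-high CMPs and 9, 0 and 0 counts in CD62L-neg CMPs, too few for a test.

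Of the receptors, Notch1 was the most abundant and the most clearly separated. Notch1 stood at 313, 229 and 209 CPM in CD62L-high CMPs, against 59.9, 33.1 and 15.7 CPM in CD62L-neg CMPs. The log2 fold change was 2.79 ± 0.29 (edgeR adjusted p = 9.65e-08), and it was 3.36 without CD62L-neg CMP replicate 1. Il7r was found at 4.35, 1.9 and 3.22 CPM (55, 30 and 52 counts) in CD62L-high CMPs, against 0.484, 0.128 and 0 CPM (4, 1 and 0 counts) in CD62L-neg CMPs. The Il7r libraries did not overlap, and the log2 fold change of 3.85 ± 1.29 missed the threshold (edgeR adjusted p = 0.0537). It passed in 4 of 30 alternative analyses, among them at 5.37 (adjusted p = 0.0269) without the 3 libraries that stood apart and at 3.80 (adjusted p = 0.00221) when only these CMP libraries were fitted, and the adjusted p ranged from 0.00221 to 0.197 over the 30.

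The remaining receptors moved less or were barely seen. Cd27 stood at 37.2, 37.6 and 49.6 CPM in CD62L-high CMPs, against 31.4, 21.1 and 13.9 CPM in CD62L-neg CMPs. Its log2 fold change of 0.90 ± 0.25 was under the 2-fold threshold (edgeR adjusted p = 0.0141), and it was 1.24 without CD62L-neg CMP replicate 1. Ccr9 gave 12, 0 and 0 counts in CD62L-high CMPs and 1, 0 and 0 counts in CD62L-neg CMPs, so nearly all of its counts came from 1 library.

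The nuclear factors Satb1 and Tcf7 went in opposite directions. Satb1 stood at 179, 170 and 166 CPM in CD62L-high CMPs, against 50.9, 23.7 and 22.8 CPM in CD62L-neg CMPs. The CD62L-high libraries agreed within 13 CPM, and the log2 fold change was 2.40 ± 0.23 (edgeR adjusted p = 4.66e-08). Tcf7 stood at 0.553, 0.19 and 0.618 CPM in CD62L-high CMPs, against 3.03, 0.766 and 2.97 CPM in CD62L-neg CMPs. The Tcf7 libraries did not overlap, but the log2 fold change of -2.29 ± 0.997 was not called (edgeR adjusted p = 0.13). Blnk, the adaptor of the pre-B cell receptor, gave 32, 6 and 11 counts in CD62L-high CMPs and no count in CD62L-neg CMPs, which puts it at least 8.61-fold higher in CD62L-high CMPs against a floor of 3 counts over the CD62L-neg group (edgeR adjusted p = 0.094, not called).

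**Figure D2:**
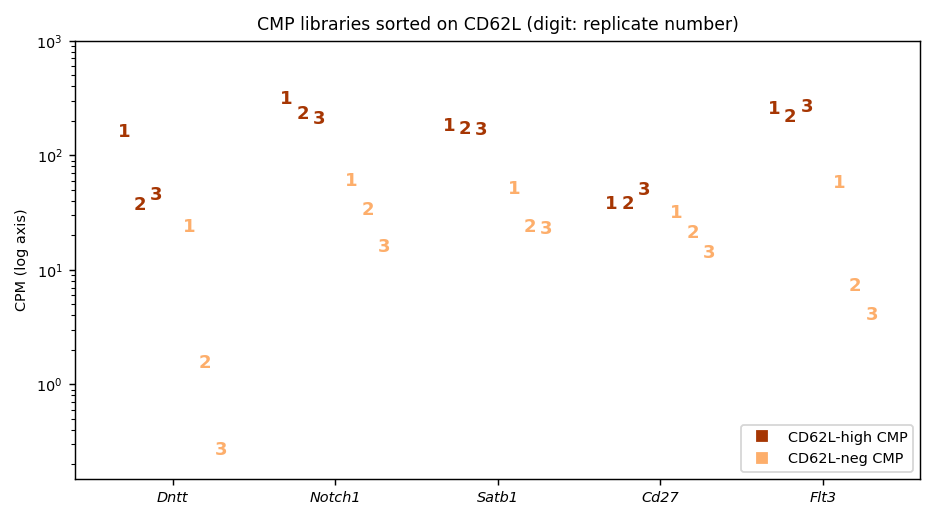
CPM on a log axis of 4 members and of Flt3 in CMP libraries sorted on CD62L, each digit being the replicate number, with CD62L-high CMPs left of CD62L-neg CMPs. In all 5 genes the CD62L-neg CMP library with the highest value is replicate 1, such as 23.7 CPM for Dntt, and it lies below each CD62L-high CMP library.

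Markers of other cells moved along with these genes in CMPs. The summed level of 13 conventional dendritic cell genes was 864 to 1180 CPM in CD62L-high CMPs, against 217 to 321 CPM in CD62L-neg CMPs, and 8 of the 11 tested were called higher. The summed level of 14 plasmacytoid dendritic cell genes was 347 to 435 CPM in CD62L-high CMPs, against 142 to 168 CPM in CD62L-neg CMPs. Of the 8 tested, Siglech, Ly6c2 and Runx2 were called higher and Smim5 lower. Siglech, which defines plasmacytoid dendritic cells, stood at 4.19, 0.762 and 1.17 CPM in CD62L-high CMPs, against 0.121, 0 and 0 CPM in CD62L-neg CMPs. The summed level of 12 erythroid genes was 23 to 43.1 CPM in CD62L-high CMPs, against 468 to 490 CPM in CD62L-neg CMPs, and 10 of the 12 were called lower. Summed NK and innate lymphoid cell genes were at 19.7 to 20.2 CPM in CD62L-high CMPs, against 104 to 115 CPM in CD62L-neg CMPs, and of 7 tested 1 was called higher and 3 lower. Summed T cell genes were at 6.67 to 11 CPM in CD62L-high CMPs, against 28.3 to 36.1 CPM in CD62L-neg CMPs. Of the 6 T cell genes tested, Cd6 was called higher and Lat lower, and Lat alone gave 28.8, 28.3 and 23.3 CPM in CD62L-neg CMPs. The summed level of 17 neutrophil and monocyte genes was 8940 to 10500 CPM in CD62L-high CMPs, against 927 to 1860 CPM in CD62L-neg CMPs, and 11 of the 17 were called higher. The summed level of 16 stem and multipotent progenitor genes was 179 to 229 CPM in CD62L-high CMPs, against 1050 to 1100 CPM in CD62L-neg CMPs, and of 14 tested 8 were called lower and 1 higher. Summed B cell genes were at 179 to 206 CPM in CD62L-high CMPs, against 71.5 to 114 CPM in CD62L-neg CMPs. In each of these groups only 1 of the 17 B cell genes had a mean over 10 CPM. Of the 4 B cell genes tested, Cd22 and Cd24a were called higher. Of 17 B cell genes, Ms4a1, Vpreb2 and Fcer2a were at 0 in CD62L-high CMPs, and 9 were at 0 in CD62L-neg CMPs. The CD62L-neg CMP libraries were shallower, with totals of 7062317 to 7509818 counts, against 11683991 to 14650082 in CD62L-high CMPs. The part of these cell types in the differences of the lymphoid priming genes was not tested.

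Within GMPs, CD62L-high cells held more Notch1 and less Cd27, Tcf7 and Rag2 than CD62L-neg cells. Of the 8 members tested, 1 was called higher and 3 were called lower, where 10.5% of all genes were called, 4.49% as higher and 6.01% as lower. Libraries of these GMPs did not overlap between groups for 5 of the 8, as for 32.2% of all genes. Il7r had no count in any of the 12 GMP libraries and Dntt had 8 counts in all of them together, so neither could differ measurably between GMPs.

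Notch1 increased along the CD62L series. It stood at 73.7, 75.8 and 59.1 CPM in CD62L-neg GMPs, at 108, 109 and 118 CPM in CD62L-int GMPs and at 182, 129 and 160 CPM in CD62L-high GMPs. No library of one step overlapped the next, and the log2 fold change of CD62L-high over CD62L-neg GMPs was 1.17 ± 0.27 (edgeR adjusted p = 0.00301). The single steps, 0.68 from CD62L-neg to CD62L-int and 0.49 from CD62L-int to CD62L-high, were not called (adjusted p = 0.16 and 0.455).

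Cd27 decreased along the same series. It stood at 29.7, 23.7 and 25.8 CPM in CD62L-neg GMPs, at 21.1, 12.5 and 12.5 CPM in CD62L-int GMPs and at 5.8, 3.63 and 3.95 CPM in CD62L-high GMPs. Here too the steps did not overlap. The log2 fold change was -2.57 ± 0.28 for CD62L-high over CD62L-neg GMPs (edgeR adjusted p = 2.55e-07) and -1.79 ± 0.27 for CD62L-high over CD62L-int GMPs (adjusted p = 0.000568). Cd27 was the single member called between CD62L-high and CD62L-int GMPs, where 1.22% of all genes were called, 0.331% as higher and 0.885% as lower, and 3 members did not overlap, as for 18.4% of all genes. None of the 8 members was called between CD62L-int and CD62L-neg GMPs, where 4.32% of all genes were called by edgeR (1.84% as higher, 2.48% as lower), DESeq2 called only Tcf7 among them, and Notch1, Cd27 and Tcf7 had an unadjusted p under 0.05 there (0.0176, 0.00548 and 0.00798). Those 3 were also the members whose libraries did not overlap there, as for 24.9% of all genes.

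Among GMPs sorted on CD62L, Tcf7 and Rag2 had their highest means in CD62L-neg GMPs. Tcf7 stood at 3.29, 4.32 and 1.84 CPM in CD62L-neg GMPs, at 0.201, 1.05 and 0 CPM in CD62L-int GMPs and at 0, 0.371 and 0.134 CPM in CD62L-high GMPs. CD62L-high GMPs were lower than CD62L-neg GMPs by a log2 fold change of -4.13 ± 1.10 (edgeR adjusted p = 0.01), while the step to CD62L-int GMPs, -2.95, had an adjusted p of 0.094 in edgeR and of 0.0208 in DESeq2. Rag2 stood at 1.3, 2.36 and 1.04 CPM in CD62L-neg GMPs, at 1.41, 0.261 and 0.197 CPM in CD62L-int GMPs and at 0, 0.0742 and 0 CPM in CD62L-high GMPs. CD62L-int replicate 1 lay above all but one of the CD62L-neg libraries, and the log2 fold change of CD62L-int over CD62L-neg GMPs was -1.31 (edgeR adjusted p = 0.666). The CD62L-high value rests on 1 count, and the ratio of pooled levels, here CD62L-neg over CD62L-high, was 63.7 with a 95% counting interval of 11 to 2560 (edgeR adjusted p = 0.0108). Without CD62L-high GMP replicate 1 the adjusted p was 0.0501, and without replicate 3 it was 0.053.

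Satb1 was nearly level across GMPs. It stood at 44.9, 56.5 and 52.1 CPM in CD62L-neg GMPs, at 55.1, 55.1 and 38.9 CPM in CD62L-int GMPs and at 44.8, 38.1 and 31.4 CPM in CD62L-high GMPs. The log2 fold change of CD62L-high over CD62L-neg GMPs, -0.43 ± 0.22, was not called (edgeR adjusted p = 0.219). Rag1, Ccr9 and Blnk gave 7, 3 and 16 counts over all 12 GMP libraries, in at most 2 libraries each.

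**Figure D3:**
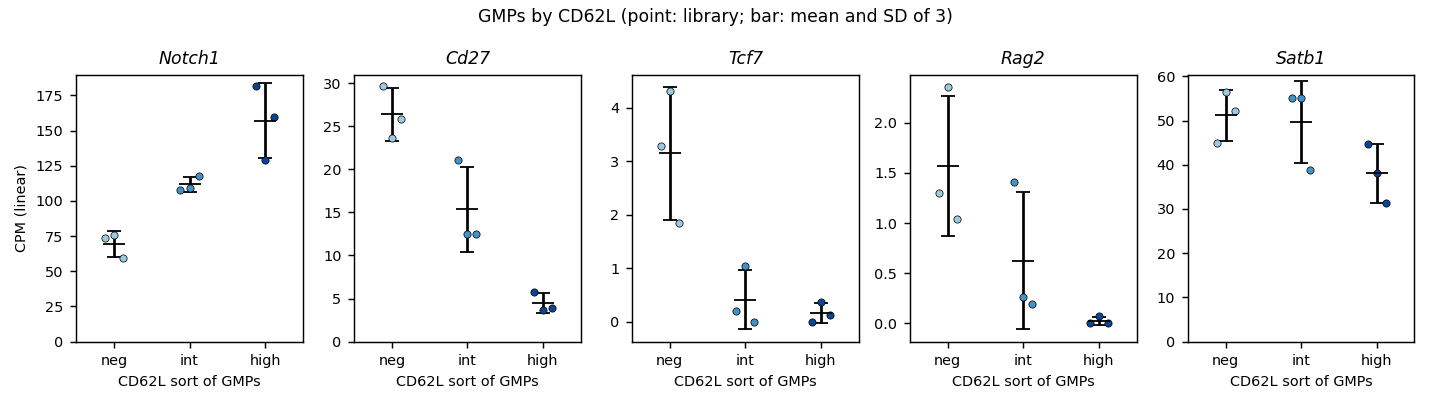
CPM (linear axes) of 5 members in GMPs sorted as CD62L-neg, CD62L-int and CD62L-high, with a point for each library and bars for the mean and SD of 3. Notch1 increases with CD62L to 129 to 182 CPM in CD62L-high GMPs, Cd27 decreases to 3.63 to 5.8 CPM, Tcf7 and Rag2 are highest in CD62L-neg GMPs, and the Satb1 groups lie close together.

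Markers of other cells also differed between these GMPs. The summed level of 18 T cell genes was 0.469 to 2.12 CPM in CD62L-high GMPs, against 11.7 to 18.2 CPM in CD62L-neg GMPs, with Cd3d, Cd3e, Cd3g and Trac at 0 in both populations, and 4 of the 6 tested were called lower. The summed level of 17 NK and innate lymphoid cell genes was 12.6 to 16.9 CPM in CD62L-high GMPs, against 106 to 145 CPM in CD62L-neg GMPs. Most of the CD62L-neg level came from Zbtb16 (71.7, 78 and 62.9 CPM) and Il1rl1, while Ncr1, Eomes and Tbx21 were at 0 there, and of the 7 tested 3 were called lower and 1 higher in CD62L-high GMPs. Summed stem and multipotent progenitor genes were at 70.6 to 86.4 CPM in CD62L-high GMPs, against 320 to 444 CPM in CD62L-neg GMPs, and 8 of the 14 tested were called lower. Summed erythroid genes were at 1.11 to 4.57 CPM in CD62L-high GMPs, against 54.3 to 80.6 CPM in CD62L-neg GMPs, and 6 of the 12 were called lower. Summed B cell genes were at 91.3 to 131 CPM in CD62L-high GMPs, against 251 to 275 CPM in CD62L-neg GMPs. Of the 4 B cell genes tested, only Cd24a was called, as lower. Higher in CD62L-high GMPs were the summed conventional dendritic cell genes (320 to 355 CPM, against 207 to 239 CPM, 3 of 11 tested called higher). The summed plasmacytoid dendritic cell genes were also higher there (754 to 1230 CPM, against 288 to 309 CPM), with the 1230 CPM from CD62L-high GMP replicate 1. Of the 8 tested, only Ly6c2 was called, as higher. The median log2 fold change of that list was 0.04, against -0.04 over all genes, and Siglech was at 0 in both populations. Summed neutrophil and monocyte genes overlapped between the groups, and of 17 tested 6 were called higher and 3 lower. The part of other cells in the Tcf7, Rag2 and Cd27 differences was not tested.

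The CD62L sort went with different changes of these genes in GMPs and CMPs. The difference of the log2 fold changes, GMP minus CMP, was called for 4 of the 8 members tested, all 4 negative, where 7.35% of all genes were called by adjusted p alone, 2.3% as positive and 5.05% as negative. Cd27 had a difference of -3.47 ± 0.38 (edgeR adjusted p = 1.34e-06), with a fold change of -2.57 in GMPs against 0.90 in CMPs. Satb1 had a difference of -2.83 ± 0.32 (adjusted p = 2.65e-06), with -0.43 in GMPs against 2.40 in CMPs. Notch1 had a difference of -1.61 ± 0.38 (adjusted p = 0.0083), since it was higher with CD62L in both, by 1.17 in GMPs against 2.79 in CMPs. Rag2 was lower in CD62L-high GMPs and higher in CD62L-high CMPs (difference of -9.70 ± 2.03, adjusted p = 0.00302), on 1 count in CD62L-high GMPs and 2 counts in CD62L-neg CMPs. These 4 calls were kept with each of the 21 libraries left out in turn.

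Between the bulk populations, the members that were called were lower in GMPs. In bulk GMPs against bulk CMPs, 5 of the 8 members tested were called lower and none higher, where 11.5% of all genes were called, 4.19% as higher and 7.3% as lower. Libraries did not overlap for 5 of the 8, as for 35.5% of all genes. Dntt gave 0, 3 and 1 counts in bulk GMPs, against 312, 72 and 409 counts in bulk CMPs, a log2 fold change of -8.45 ± 1.26 (edgeR adjusted p = 4.71e-05). The Dntt counts of bulk CMPs correspond to 41.8, 21.5 and 53.4 CPM. Cd27 stood at 16.4, 13.3 and 16.1 CPM in bulk GMPs, against 38.6, 44.2 and 49.6 CPM in bulk CMPs (log2 fold change -1.53 ± 0.26, adjusted p = 0.000146). Satb1 stood at 52.9, 48.9 and 48.8 CPM in bulk GMPs, against 149, 109 and 131 CPM in bulk CMPs (log2 fold change -1.37 ± 0.23, adjusted p = 0.000108). Libraries of the groups did not overlap for any of these 3 genes.

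The calls of the scarcer genes between the bulk populations were less firm. Tcf7 stood at 1.14, 0.386 and 0.229 CPM in bulk GMPs, against 2.68, 10.2 and 4.83 CPM in bulk CMPs (log2 fold change -3.29 ± 1.01, edgeR adjusted p = 0.0231). The highest Tcf7 value came from bulk CMP replicate 2, and without that library the adjusted p was 0.0887, as it was 0.0901 and 0.0977 without bulk GMP replicate 2 or 3. Blnk gave no count in bulk GMPs, against 14, 9 and 0 counts in bulk CMPs, so the libraries overlapped. Against a floor of 3 pooled counts, Blnk was at least 16.3-fold lower in bulk GMPs (edgeR adjusted p = 0.0453, and 0.213 in DESeq2), a call lost in 18 of 29 alternative analyses. Notch1, at 130, 134 and 122 CPM in bulk GMPs against 192, 233 and 215 CPM in bulk CMPs, was not called (log2 fold change -0.73 ± 0.27, adjusted p = 0.0568), although the libraries did not overlap. Rag1, which could not be tested, gave no count in bulk GMPs, against 12, 2 and 4 counts in bulk CMPs, at least 12.8-fold lower in bulk GMPs against the same floor. Il7r gave no count in bulk GMPs, against 5 counts over all bulk CMP libraries, and was not called (adjusted p = 0.0894). Beside these differences, the summed stem and multipotent progenitor genes were at 132 to 150 CPM in bulk GMPs, against 537 to 670 CPM in bulk CMPs (8 of 14 tested called lower). Summed conventional dendritic cell genes were at 253 to 268 CPM in bulk GMPs, against 593 to 643 CPM in bulk CMPs (6 of 11 tested called lower). Summed neutrophil and monocyte genes were at 22600 to 23600 CPM in bulk GMPs, against 5540 to 5950 CPM in bulk CMPs (10 of 17 called higher), and the part of these cell types was not tested.

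At matched CD62L the difference between the progenitors depended on the CD62L level. In CD62L-high GMPs against CD62L-high CMPs, 5 of the 8 members tested were called lower and none higher, where 7.64% of all genes were called, 2.53% as higher and 5.11% as lower. Libraries did not overlap for 6 of the 8, as for 31.2% of all genes. Dntt was at least 1010-fold lower and Il7r at least 41.7-fold lower in CD62L-high GMPs, which had no count of either gene (edgeR adjusted p = 9.94e-06 and 0.00465). Cd27 was lower by a log2 fold change of -3.22 ± 0.28 (adjusted p = 2.48e-08) and Satb1 by -2.17 ± 0.23 (adjusted p = 4.94e-07). Rag2, called in all alternatives except without CD62L-high GMP replicate 1 or 3 (adjusted p = 0.0572 and 0.0581), was lower as well, with a ratio of CD62L-high CMPs over CD62L-high GMPs of 68.4 and a 95% counting interval of 11.9 to 2740 (adjusted p = 0.0118). Notch1 was not called (log2 fold change -0.68 ± 0.27, adjusted p = 0.108).

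In CD62L-neg GMPs against CD62L-neg CMPs, 1 member was called higher and 1 lower of the 8 tested, where 12.6% of all genes were called, 6.49% as higher and 6.11% as lower. Libraries did not overlap for 2 of the 8, as for 40.5% of all genes. Dntt gave 0, 1 and 0 counts in CD62L-neg GMPs, against 196, 12 and 2 counts in CD62L-neg CMPs, and the ratio of CD62L-neg CMPs over CD62L-neg GMPs was 342 with a 95% counting interval of 60.8 to 13600 (edgeR adjusted p = 0.000873). That call rested on CD62L-neg CMP replicate 1, without which the adjusted p was 0.0556. Rag2 was higher in CD62L-neg GMPs, with a ratio over CD62L-neg CMPs of 18.4 and a 95% counting interval of 4.88 to 155 (adjusted p = 0.0397), a call lost without any 1 of 9 libraries. Without CD62L-neg CMP replicate 1, Notch1 and Satb1 were called higher in CD62L-neg GMPs, at log2 fold changes of 1.5 and 1.12, against 0.94 and 0.65 with all libraries.

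CD62L-neg GMPs were also compared with CD62L-high CMPs. Of the 8 members tested, 4 were called lower in CD62L-neg GMPs and none higher, where 8.44% of all genes were called, 3.82% as higher and 4.62% as lower. Libraries did not overlap for 7 of the 8, as for 35.3% of all genes. The comparison shares its libraries with those above. They were Dntt (ratio of CD62L-high CMPs over CD62L-neg GMPs 2850, 95% counting interval 511 to 113000), Il7r (at least 39.2-fold lower), Notch1 (log2 fold change -1.85 ± 0.27) and Satb1 (-1.75 ± 0.23), with edgeR adjusted p-values of 8.1e-06, 0.00417, 2.89e-05 and 4.64e-06. Tcf7 differed the other way, at 3.29, 4.32 and 1.84 CPM in CD62L-neg GMPs against 0.553, 0.19 and 0.618 CPM in CD62L-high CMPs. The Tcf7 libraries did not overlap, and the log2 fold change of 2.77 ± 0.99 was not called by edgeR (adjusted p = 0.0696) and was called by DESeq2 (2.79, adjusted p = 0.0194). Rag2 had 1.3, 2.36 and 1.04 CPM in CD62L-neg GMPs, against 2.53, 2.29 and 0.433 CPM in CD62L-high CMPs, and the groups overlapped.

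**Figure D4:**
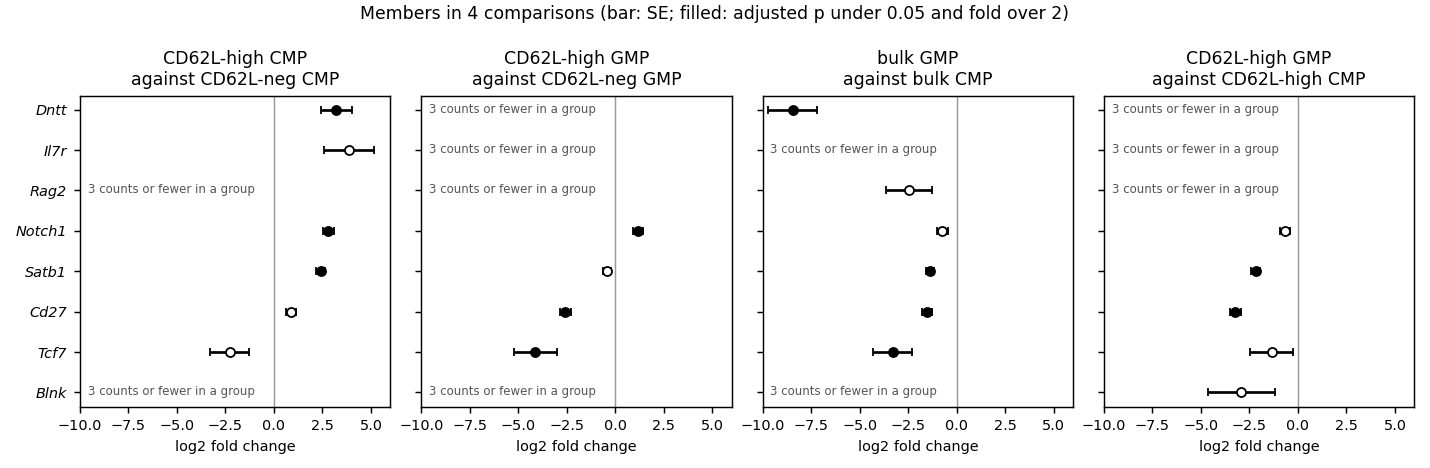
Log2 fold changes with SE of the 8 members tested in 4 comparisons, filled where the adjusted p was under 0.05 and the fold over 2, and left as text where a group had 3 counts or fewer. Notch1 and Satb1 lie right of 0 in CMPs, at 2.79 and 2.40, while Cd27 and Tcf7 lie left of 0 in GMPs, at -2.57 and -4.13.

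Other genes of the same pathways were counted from lists of names. FLT3 and IL-7 signalling together set the early lymphoid programme of the mouse. Of 15 genes tested in that list, Flt3 (log2 fold change 3.41) and the survival factor Bcl2 (1.28) were called higher and Stat5a (-1.21), a transducer of the IL-7 receptor, was called lower in CD62L-high CMPs against CD62L-neg CMPs. These were 20% of the list, where 10.5% of all genes were called. The median log2 fold change of the list was -0.50, against 0.01 over all genes. Flt3 stood at 256, 217 and 266 CPM in CD62L-high CMPs, against 57.5, 7.28 and 4.06 CPM in CD62L-neg CMPs. In GMPs its order by CD62L was the same at a lower level, with 4.43, 4.01 and 3.53 CPM in CD62L-neg GMPs, 12.4, 13.8 and 12.8 CPM in CD62L-int GMPs and 16, 20.4 and 19.1 CPM in CD62L-high GMPs. Between bulk GMPs and bulk CMPs, 7 of the 15 were called lower, Flt3, Socs3, Cish and Il2rg among them, and none higher (median -1.04, against 0 over all genes). Of all genes, 11.5% were called there, 7.3% as lower.

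Of 17 Notch pathway genes tested, none was called higher in CD62L-high CMPs and only Nrarp was called lower, 5.88% of the list where 10.5% of all genes were called (median -0.16, against 0.01 over all genes). Nrarp, a feedback regulator that Notch itself induces, stood at 0.474, 0.635 and 0.186 CPM in CD62L-high CMPs, against 4.12, 5.36 and 7.3 CPM in CD62L-neg CMPs. In GMPs Nrarp was again the single one called between CD62L-high and CD62L-neg cells, 5.88% of the list where 10.5% of all genes were called. It had no count in CD62L-high GMPs, against 1.68, 4.79 and 2.88 CPM in CD62L-neg GMPs, at least 42.1-fold lower (edgeR adjusted p = 2.99e-05). Notch1 was thus higher and Nrarp lower in the CD62L-high cells of both progenitors. In bulk GMPs against bulk CMPs, 6 of the 17 were called lower, Hes1, Lfng, Jag2 and Maml2 among them, and Jag1 was called higher. There 11.5% of all genes were called, 4.19% as higher and 7.3% as lower.

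Of 13 genes for DNA bending and end joining, none was called higher and Xrcc5 and Polm were called lower in CD62L-high CMPs against CD62L-neg CMPs, 15.4% of the list where 10.5% of all genes were called (median -0.12). Xrcc5, the Ku80 subunit of the end-joining machinery, had no count in the CD62L-high GMP libraries, against 7.41, 6.99 and 10.7 CPM in CD62L-neg GMPs, which is at least 113-fold lower (edgeR adjusted p = 1.5e-09). Xrcc6, its Ku70 partner, stood at 36.1, 75.3 and 53 CPM in CD62L-high GMPs, against 71.5, 75.8 and 73.8 CPM in CD62L-neg GMPs, and was not called.

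The next list held genes of lymphoid-primed multipotent progenitors. Of 14 tested, 6 were called higher in CD62L-high CMPs against CD62L-neg CMPs, Ighm (log2 fold change 5.35), Emb (3.74) and Flt3 (3.41) among them, and Gimap1 was called lower (-1.37), together 50% of the list where 10.5% of all genes were called. Ighm, the immunoglobulin heavy chain constant region, stood at 193, 150 and 154 CPM in CD62L-high CMPs, against 10.9, 0.128 and 0.811 CPM in CD62L-neg CMPs, and at 216, 146 and 132 CPM in CD62L-high GMPs, against 4.59, 4.24 and 6.09 CPM in CD62L-neg GMPs. In bulk GMPs against bulk CMPs, 8 of the 14 were called lower and none higher (median -2.21, against 0 over all genes), where 11.5% of all genes were called, 7.3% as lower. Those of the largest fold were Gimap5, Gimap6, Gimap8 and Ltb. Gimap6 stood at 1.14, 2.24 and 1.53 CPM in bulk GMPs, against 65.8, 49.3 and 67 CPM in bulk CMPs.

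Lymphoid transcription factors other than the members were called in both directions. Of 18 tested, 2 were called higher and 4 lower in CD62L-high CMPs against CD62L-neg CMPs, and 2 higher and 6 lower in CD62L-high GMPs against CD62L-neg GMPs, where 10.5% of all genes were called in each. Nfil3, which innate lymphoid development needs, was called higher with CD62L in both, at log2 fold changes of 3.47 in CMPs and 2.24 in GMPs. Ets1, a factor of T and NK cells, was called lower in both, at -1.91 in CMPs and -7.16 in GMPs. Ets1 reached 48.5, 47.4 and 57.3 CPM in CD62L-neg GMPs, its highest population, against 0.572, 0.222 and 0.268 CPM in CD62L-high GMPs. In bulk GMPs against bulk CMPs, 10 of the 18 were called lower and 1, Nfil3, higher (median -1.33), where 11.5% of all genes were called. Gata3, Tox, Id3 and Foxo1 led those that were lower in bulk GMPs. In CD62L-neg GMPs against CD62L-neg CMPs 4 were called higher and 4 lower, where 12.6% of all genes were called. The 4 lower there were Gata3, Mef2c, Bcl11a and Sox4. Ebf1 and Pax5, which commit cells to the B lineage, stayed at or under 0.541 CPM in all 21 libraries.

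For members with a mean of at least 5 CPM in some population, the genes of most like pattern were sought by Pearson's r of log2(CPM + 1) over the 7 population means, among 8934 genes. Dntt was most like H2-Ab1 (r = 0.972), Nfatc1 (0.971) and Tcf4 (0.971), of which H2-Ab1 encodes a chain of MHC class II and Tcf4 the E2-2 factor of plasmacytoid dendritic cells. Notch1 was most like Npc1 (0.989), Itgb5 (0.986) and Cnn3 (0.976). Satb1 was most like Kcng1 (0.971), Tarbp1 (0.9502) and Apobr (0.947). Cd27 was most like Camk2g (0.980), Myc (0.976) and Maco1 (0.975), and Tcf7 was most like Cnot7 (0.963), Agbl5 (0.959) and Tor1aip2 (0.959). The 7 points share libraries among members and no p-value is attached. With log2(CPM + 4), 1 of the 3 genes stayed for Dntt, Cd27 and Tcf7 and all 3 stayed for Notch1 and Satb1.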

How the data were processed

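The deposited table held raw counts per gene of 21 libraries. Per the labels and the study's methods, the authors demultiplexed with bcl2fastq, trimmed with Trim Galore, aligned to mm10 with HISAT2 and counted with HTSeq. Versions and strand setting are not given in the sources used here. The labels name a stranded SMARTer kit and the methods SMART-Seq v4. The study left out 1 bulk CMP library for a low mapping rate, without naming it, and all 3 were used here.

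Symbols were matched for 47224 of 47643 identifiers. In R 4.3.3 with edgeR 4.0.16, genes were filtered with filterByExpr, scaled by TMM and tested with the quasi-likelihood F test in 1 fit of all 21 libraries, in 9 comparisons, with Benjamini-Hochberg adjustment over 14801 genes. A call needed an adjusted p under 0.05 and a fold over 2 (interaction: adjusted p alone). CPM are TMM-scaled, and errors of fold changes are SE from the F statistic. A population at 0 was given a floor of 3 pooled counts, and ratios on 1 to 3 counts exact 95% intervals. Folds given as at least a value use that floor and leave out the counting error of the higher population. DESeq2 1.42.0, other filters, scalings and fits, and leaving out each library were alternatives. Scripts were tested on simulated data. The members and lists were chosen with earlier results of these data known. All 10 members were named, with called genes of each list (at most 4 in each direction, by the largest fold), and genes of like pattern among those with a mean of at least 10 CPM. Other genes were picked with their values in view, and some are not reported here.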

Additional observations from a re-analysis of the deposited data

Results flagged for a closer look

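The response to the CD62L sort differed between GMPs and CMPs for 4 members, by the interaction term of the edgeR fit. The difference of log2 fold changes, GMP minus CMP, was -9.70 for Rag2, -3.47 for Cd27, -2.83 for Satb1 and -1.61 for Notch1, with edgeR adjusted p-values of 0.00302, 1.34e-06, 2.65e-06 and 0.0083. Cd27 was lower in 3 of 3 CD62L-high GMP libraries than in any CD62L-neg GMP library, and higher in 3 of 3 CD62L-high CMP libraries than in any CD62L-neg CMP library. The same held for Satb1, though its change in GMPs was not called. Notch1 was higher with CD62L in both progenitors, and the size of its change differed. The Rag2 value rests on 1 count in CD62L-high GMPs and 2 counts in CD62L-neg CMPs.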

How the results depend on the processing

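Leaving out each library in turn gave 2 to 5 members called in CD62L-high against CD62L-neg CMPs, 3 to 4 in CD62L-high against CD62L-neg GMPs, 0 to 1 in CD62L-int against CD62L-neg GMPs, 3 to 5 in bulk GMPs against bulk CMPs, 1 to 3 in CD62L-neg GMPs against CD62L-neg CMPs, 4 to 5 in CD62L-high GMPs against CD62L-high CMPs, 4 to 5 in CD62L-neg GMPs against CD62L-high CMPs, and always 1 in CD62L-high against CD62L-int GMPs and 4 for the difference between progenitors. The lowest counts came without CD62L-high CMP replicate 1 (2 called), without bulk CMP replicate 2 or bulk GMP replicate 2 or 3 (3 called), and without any 1 of 8 libraries in CD62L-neg GMPs against CD62L-neg CMPs (1 called). In that last comparison, 4 members were called by adjusted p alone, 1 when only its libraries were fitted, and 4 without the 3 libraries that stood apart, an alternative added after seeing the data. Without those 3 libraries, 3 members were called in bulk GMPs against bulk CMPs. In CD62L-int against CD62L-neg GMPs, 1 member (Tcf7) was called with no filter, with only the libraries compared, in DESeq2 and without those 3 libraries. The cause was not tested.

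Differences near 0 turned with the libraries used. Leaving out 1 library gave -0.63 to 0.20 for Rag2 in CD62L-neg GMPs against CD62L-high CMPs (positive without CD62L-high CMP replicate 1 or 2 or CD62L-neg GMP replicate 3, at 0.20, 0.07 and 0.06, and 0.13 under the replicate block), -0.12 to 0.12 for Satb1 in CD62L-int against CD62L-neg GMPs (positive without CD62L-neg GMP replicate 2, at 0.05, or CD62L-int GMP replicate 3, at 0.12), and in CD62L-high against CD62L-int GMPs -2.32 to 0.70 for Tcf7 (positive without CD62L-int GMP replicate 2) and -4.46 to 3.88 for Blnk (positive without CD62L-int GMP replicate 3). None of these was called.

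No same-numbered pair of libraries had a correlation over 0.1 in deviations from the group means, while unlike-numbered pairs reached 0.141. With 3 libraries in each group, these correlations cannot tell whether replicate numbers pair the libraries. A block on replicate number lost 1 call, Blnk between the bulk populations (4 called in place of 5). Over all genes, CD62L-high against CD62L-int GMPs had 180 calls, against 324 with no filter, 71 with only those libraries, 294 in DESeq2, 300 by adjusted p alone, and 87 to 115 without CD62L-int GMP replicate 1 or 3 or CD62L-high GMP replicate 1. By adjusted p alone 6 other comparisons had 1852 to 3184 calls, against 1131 to 1865. The difference between progenitors had 1088 calls, against 1742 without bulk CMP replicate 2 and 1927 without the 3 libraries. Depth limits Il7r, Rag1, Rag2, Ccr9, Blnk and Tcf7, which rest on few counts.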
